A study of Mus musculus with 16 samples.

Results

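The pre-B receptor and its signalling partners were followed through 8 genes, Vpreb1, Vpreb3, Igll1, Cd79a, Cd79b, Blnk, Blk and Cd22, in stem cells and lymphoid progenitors sorted from mouse bone marrow. They are 8 of the 18193 genes that the platform annotation ties to a probe set of their own, and each was read from the probe set with the highest mean log2(intensity + 16) over the 16 Affymetrix arrays. All 8 were among the 14343 genes tested, which lay above the 40th percentile of their array on at least 2 arrays. They were listed by function, with earlier results of these data known, and the rule that picked their probe sets used no comparison between groups.

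The pre-B receptor is an immature form of the B-cell receptor. In it a newly made immunoglobulin heavy chain pairs with a surrogate light chain, built from the products of Vpreb1 and Igll1, and Vpreb3 encodes a related chain-binding protein. Cd79a and Cd79b encode the heterodimer that carries the signal into the cell, Blk is a Src-family kinase that acts on it, Blnk is the adaptor that links it to phospholipase C, and Cd22 is a sialic acid-binding inhibitory co-receptor. Several of these genes are known to be switched on in early B-lineage cells before an immunoglobulin heavy chain is complete.

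The common lymphoid progenitors (CLP), which give rise to lymphocytes, came from wild-type mice of 8 to 12 weeks, with 2 arrays of cells bearing the surface protein Ly6D and 2 of cells without it. The hematopoietic stem cells (HSC) came from wild-type mice of 9 to 12 weeks (young, 3 arrays), 24 months (old, 3 arrays) and 32 weeks (Polgtm1Lrsn+/+, 3 arrays), and from Mutator mice of 32 weeks (Polgtm1Lrsn-/-, 3 arrays), whose mitochondrial DNA polymerase lacks proofreading. All mice are labelled C57Bl6 and female, the replicates are labelled biological, and each sample gave cRNA from 4000 to 7000 cells. Whether animals were pooled is not given in the sources used here. In such bulk samples, fewer cells with a transcript and less transcript per cell cannot be told apart.

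Some arrays went against their labels or stood apart. The 4 CLP arrays and replicate 3 of the 32-week wild-type HSC had Xist at 9.12 to 16.8 and the Y-linked Eif2s3y at 423 to 758, against 3507 to 11022 and 6.85 to 12.7 on the other 11 arrays, although every sample is labelled female. This difference and the difference between young HSC and CLP cannot be told apart. The BioB hybridization spike-in read 2313 to 3091 on the CLP arrays, 275 to 529.6 on the young and old HSC arrays and 272 to 1956 on the 32-week HSC arrays. The BioB difference between CLP and young HSC also cannot be told apart from that of cell type. Replicate 1 of the 32-week wild type (BioB 1804) and replicate 1 of the Mutator mice (BioB 1956) stood apart from the other HSC arrays in this spike-in. Replicate 1 of the 32-week wild type also had the highest 40th percentile of all arrays, 21.3, and the highest HSC values of Vpreb1, Vpreb3, Igll1 and Cd22. The log2 ratio of the 3' to the 5' actin probe sets, a sign of RNA degradation or short cRNA, was 2.11 to 3.85 in CLP, 2.20 to 2.61 in young and old HSC and 4.24 to 5.26 in the 32-week HSC. The sort marker Ly6d read 1758 and 1126 in the Ly6D+ CLP and 54.7 and 23.0 in the Ly6D- CLP, and Il7r, a defining CLP gene, read 2162 to 3929.8 in CLP and 11 to 28.8 in HSC.

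Promoter windows of 250 bases upstream of the RefSeq start (GRCm38.p6) were given for 6 members, and those for Cd79b and Blk were not used here. The windows shown are those of the neighbouring surrogate light chain genes Vpreb1 and Igll1, whose RNA differed most between the CLP groups, of Vpreb3 and Blnk, which share an octamer, and of Cd22, the member that did not rise. They are written from 5' to 3' in the direction of the gene, and capitals mark matches on either strand to the letters ATTTGCAT (octamer, bound by Oct factors with the coactivator Pou2af1), CCCNNGGG (core of sites for Ebf1) and CAGGTG or CAGCTG (E boxes, bound by E proteins such as Tcf3), with no overlaps among the matches.
Vpreb1, chr16:16869256-16869505, minus strand: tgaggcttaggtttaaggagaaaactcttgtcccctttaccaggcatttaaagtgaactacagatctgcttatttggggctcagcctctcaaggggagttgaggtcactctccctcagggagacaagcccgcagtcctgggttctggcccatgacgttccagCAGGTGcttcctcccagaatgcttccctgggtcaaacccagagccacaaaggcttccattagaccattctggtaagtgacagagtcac
Igll1, chr16:16863986-16864235, minus strand: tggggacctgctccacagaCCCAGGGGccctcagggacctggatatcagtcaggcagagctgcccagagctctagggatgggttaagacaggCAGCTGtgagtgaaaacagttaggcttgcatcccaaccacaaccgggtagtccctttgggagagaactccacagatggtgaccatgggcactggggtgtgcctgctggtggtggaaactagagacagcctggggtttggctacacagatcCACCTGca
Vpreb3, chr10:75948050-75948299, plus strand: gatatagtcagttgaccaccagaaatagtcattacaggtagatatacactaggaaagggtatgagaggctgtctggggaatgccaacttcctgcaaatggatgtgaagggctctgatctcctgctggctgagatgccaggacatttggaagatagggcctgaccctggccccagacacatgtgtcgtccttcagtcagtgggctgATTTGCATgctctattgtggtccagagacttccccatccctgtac
Blnk, chr19:40994222-40994471, minus strand: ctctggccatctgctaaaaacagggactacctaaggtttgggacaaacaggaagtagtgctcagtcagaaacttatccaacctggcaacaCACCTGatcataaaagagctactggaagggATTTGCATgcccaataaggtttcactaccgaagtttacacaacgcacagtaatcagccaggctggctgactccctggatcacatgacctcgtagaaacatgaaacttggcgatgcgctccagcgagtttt
Cd22, chr7:30879029-30879278, minus strand: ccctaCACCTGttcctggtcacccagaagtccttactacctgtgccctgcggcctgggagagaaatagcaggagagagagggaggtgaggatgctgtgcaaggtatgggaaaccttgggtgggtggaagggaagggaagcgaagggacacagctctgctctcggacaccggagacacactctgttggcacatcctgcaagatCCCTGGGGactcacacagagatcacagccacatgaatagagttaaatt
The octamer lies at -45 to -38 in Vpreb3 and at -130 to -123 in Blnk, counting the base before the start as -1. It occurs in 2 of the 6 member windows and in 1.60% of the 32851 mouse windows of this length. CAGGTG occurs in 5 of the 6 member windows, all but Vpreb3, and in 17.2% of all windows. The core CCCNNGGG occurs in Igll1 at -231 to -224 and in Cd22 at -48 to -41, and in 11.8% of all windows, and CAGCTG occurs in Igll1 and in 13% of all windows. These matches describe letters only, and binding was not measured.

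In the comparison of Ly6D+ with Ly6D- CLP, which asks what separates the B-lineage-directed from the remaining CLP, 7 of the 8 members were higher in Ly6D+ CLP and none was lower (limma, Benjamini-Hochberg adjusted p under 0.05 over all genes tested). Among all genes tested, 1.49% were called higher and 1.19% lower. These calls rest on a spread shared with the HSC arrays: with only the 4 CLP arrays fitted the changes were the same and 0 members were called, with a lowest adjusted p of 0.132 in limma and 7 members at an unadjusted p under 0.05. The surrogate light chain genes Vpreb1 and Igll1 differed most, by 5.92 and 5.91 on the log2(intensity + 16) scale, and Cd22 was the exception at -0.65. The median log2 change of the members was 2.15, against 0.01 over all genes. The intensities of the 2 groups did not overlap for any member, with 7 higher and 1 lower in Ly6D+ CLP, where 19.0% and 16.3% of all genes separate in those directions.

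**Figure D1:**
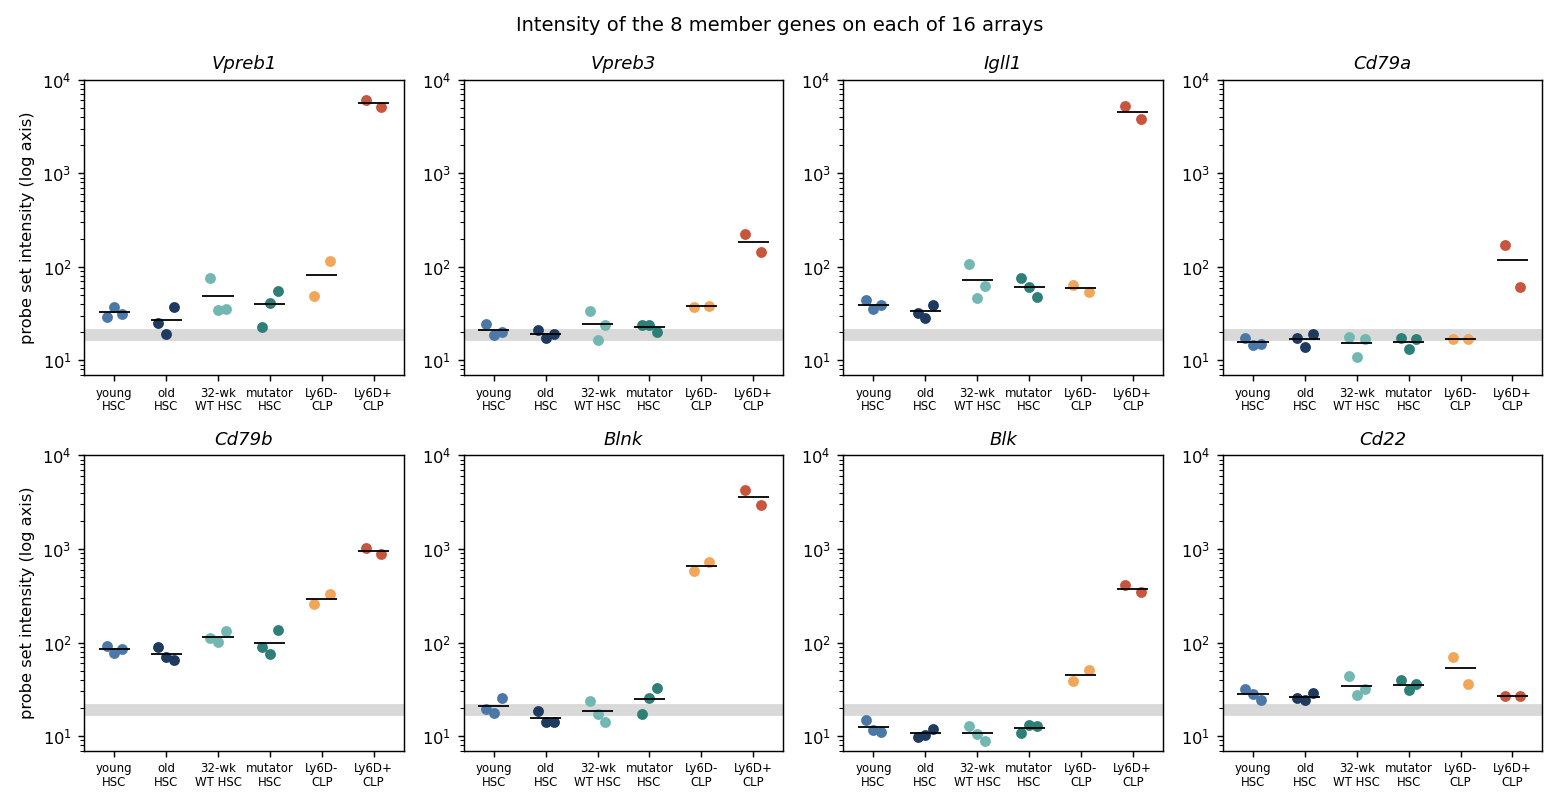
Probe set intensity (log axis) of each member on each of the 16 arrays, grouped by cell type. Points are arrays, black lines are group means, and the grey band spans the 40th percentiles of the arrays, 16.6 to 21.3, at or below which a probe set is taken as background. Vpreb1 and Igll1 read 3841 to 6086 in Ly6D+ CLP and at most 117 elsewhere, whereas Blnk and Cd79b are already raised in Ly6D- CLP.

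Vpreb1, the V-like part of the surrogate light chain, read 6086 and 5117 in the Ly6D+ CLP and 48.6 and 117 in the Ly6D- CLP. Among the HSC it read 28.8, 37.6 and 31.2 in young, 25.2, 19.1 and 37.4 in old, 76.4, 34.9 and 35.4 in 32-week wild-type and 22.6, 41.1 and 55.7 in Mutator mice. Only the Ly6D+ CLP stood far from the rest, and the HSC groups overlapped each other. The mean was 5602 ± 685 (SD, n = 2) against 82.7 ± 48.1 (SD, n = 2), a ratio of 67.8, and the log2 change was 5.92 ± 0.380 (SE), with an adjusted p of 1.53e-06 in limma. A probe set that the annotation assigns to Vpreb1 and Vpreb2 together read 294 and 186 in Ly6D+ CLP, 11.6 and 19.9 in Ly6D- CLP and 9.40 to 15.4 in HSC, so it was also highest in Ly6D+ CLP.

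Igll1 encodes lambda 5, the constant-like part of the surrogate light chain, and lies next to Vpreb1 on chromosome 16 in the RefSeq gene order. It read 5222 and 3841 in Ly6D+ CLP and 63.9 and 53.8 in Ly6D- CLP. In HSC it read 44.1, 35.1 and 39.0 in young, 32.3, 28.3 and 39.5 in old, 107, 46.9 and 62.7 in 32-week wild-type and 76.0, 60.7 and 47.1 in Mutator mice. The Ly6D- CLP therefore lay within the range of the 32-week HSC, and the Ly6D+ CLP lay far above every other group. The mean of 4531 ± 977 (SD, n = 2) was 77.0 times that of 58.8 ± 7.14 (SD, n = 2), a log2 change of 5.91 ± 0.280 (SE) with an adjusted p of 8.82e-08 in limma. The other Igll1 probe set did not follow: it read 17.9 and 18.9 in Ly6D+ CLP and 14.6 and 14.1 in Ly6D- CLP, with a log2 change of 0.18 ± 0.120 (SE, adjusted p = 0.676 in limma over all probe sets). The 2 probe sets of Igll1 thus disagree, and the bright probe set is of the x_at type, whose probes can match other transcripts.

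Vpreb3 spanned a smaller range. It read 227 and 143 in Ly6D+ CLP and 37.4 and 38.3 in Ly6D- CLP. The HSC read 24.8, 18.9 and 20.1 in young, 21.0, 17.5 and 19.1 in old, 34.1, 16.6 and 23.7 in 32-week wild-type and 23.7, 23.7 and 20.1 in Mutator mice. All 4 CLP arrays lay above all 12 HSC arrays, and the HSC values lay close to background. Ly6D+ exceeded Ly6D- CLP by 1.87 ± 0.219 (SE) in log2, with means of 185 ± 58.9 and 37.9 ± 0.588 (SD, n = 2 each) and an adjusted p of 3.22e-04 in limma.

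Cd79a, a transmembrane signalling chain, was at or near background in every group except the Ly6D+ CLP, where its replicates differed widely. It read 173 and 60.9 in Ly6D+ CLP and 17.0 and 16.9 in Ly6D- CLP. The 12 HSC arrays read 10.8 to 19.1. The Ly6D+ mean was 117 ± 79.2 (SD, n = 2). By geometric means, Ly6D+ CLP lay at least 5.76-fold above the background level of the Ly6D- arrays. The log2 change, whose size depends on the added 16, was 1.87 ± 0.299 (SE, adjusted p = 0.00466 in limma). With 1 added in place of 16 the change was 2.53 and with 64 it was 1.09. Without replicate 1 of the Ly6D+ CLP it was 1.22 and still passed (adjusted p = 0.00426 in limma).

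Cd79b, its partner chain, was above background on all 16 arrays and rose in steps. It read 1020 and 887 in Ly6D+ CLP and 258 and 330 in Ly6D- CLP. HSC read 92.9, 78.1 and 85.9 in young, 90.0, 70.6 and 65 in old, 113, 102 and 132 in 32-week wild-type and 90.2, 74.9 and 135 in Mutator mice. All 4 CLP arrays lay above all 12 HSC arrays, and the 2 CLP groups did not overlap. Ly6D+ CLP averaged 954 ± 93.8 and Ly6D- CLP 294 ± 50.7 (SD, n = 2 each), a ratio of 3.24 and a log2 change of 1.65 ± 0.233 (SE, adjusted p = 0.00171 in limma). Array weights ended this call (adjusted p = 0.0779 in limma).

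Blnk, the adaptor downstream of the receptor, was near background in HSC, clearly present in Ly6D- CLP and higher again in Ly6D+ CLP. It read 4283 and 2939.7 in Ly6D+ CLP and 579 and 725 in Ly6D- CLP. In HSC it read 19.3, 17.7 and 25.6 in young, 18.7, 14.1 and 14.3 in old, 23.5, 17.4 and 14.2 in 32-week wild-type and 17.1, 25.4 and 32.5 in Mutator mice. The CLP groups separated from each other and from every HSC array. The ratio of the means, 3611 ± 949.9 against 652 ± 103 (SD, n = 2 each), was 5.54, and the log2 change was 2.42 ± 0.231 (SE, adjusted p = 6.91e-05 in limma).

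Blk, the Src-family kinase, read 408 and 347 in Ly6D+ CLP and 39.1 and 51.5 in Ly6D- CLP. It was below the 40th percentile of its array on all 12 HSC arrays, where it read 8.82 to 14.9. The order Ly6D+ above Ly6D- CLP above HSC held on every array. Ly6D+ CLP averaged 377 ± 43.1 and Ly6D- CLP 45.3 ± 8.71 (SD, n = 2 each), a ratio of 8.33 and a log2 change of 2.68 ± 0.158 (SE, adjusted p = 7.99e-07 in limma).

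Cd22, the inhibitory co-receptor, did not rise. It read 27.0 and 26.6 in Ly6D+ CLP and 70.5 and 36.0 in Ly6D- CLP. In HSC it read 32.0, 27.9 and 24.2 in young, 25.8, 24.2 and 29.0 in old, 44.0, 27.4 and 32.1 in 32-week wild-type and 39.7, 31.1 and 35.9 in Mutator mice. The Ly6D+ CLP lay inside the HSC range, and only replicate 1 of the Ly6D- CLP lay above it. The log2 change from Ly6D- to Ly6D+ CLP was -0.65 ± 0.224 (SE, 95% interval -1.13 to -0.16, adjusted p = 0.186 in limma), so it missed the threshold. Without replicate 2 of the Ly6D- CLP it was -1.01 and passed (adjusted p = 0.0310 in limma), and without replicate 1 it was -0.28 (adjusted p = 0.625 in limma). The other Cd22 probe set was below background on all 16 arrays, at 7.36 to 10.7.

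The size of these differences varied between the replicates of Ly6D+ CLP. All 8 members were higher in replicate 1 than in replicate 2, where 49.2% of all genes tested were. The log2 gap was 1.30 for Cd79a, 0.61 for Vpreb3, 0.54 for Blnk, 0.44 for Igll1 and 0.01 to 0.25 for the others, and the median absolute gap over all genes was 0.30. Ly6d itself was 0.64 higher in replicate 1, and the log2 ratio of 3' to 5' actin was 2.51 in replicate 1 and 3.85 in replicate 2. Their part in the gap was not tested. In the Ly6D- CLP, 3 of the 8 members were higher in replicate 1, with Vpreb1 at -1.04 and Cd22 at 0.73 (replicate 1 minus replicate 2, log2), and 56.1% of all genes were. Leaving out each of the 4 CLP arrays in turn kept all 7 calls.

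The steps from young HSC to Ly6D- CLP and on to Ly6D+ CLP were uneven among the members. In Ly6D- CLP against young HSC, 4 of 8 members were higher and none lower, while 9.55% of all genes tested were called higher and 14.9% lower. Blnk, the adaptor, changed most and averaged 652 against 20.9 ± 4.15 (SD, n = 3) in young HSC, a log2 change of 4.18 ± 0.211 (SE, adjusted p = 2.20e-08 in limma). Cd79b was higher by 1.60 ± 0.213 (SE, adjusted p = 1.54e-04 in limma). Blk was at least 2.64-fold above the background level of the young HSC (log2 change 1.10 ± 0.144, SE, adjusted p = 1.41e-04 in limma). Cd22 was higher by 0.61 ± 0.204 (SE, adjusted p = 0.0443 in limma). The Cd22 call was lost in 8 of 17 alternatives, among them without Ly6D- CLP replicate 1, where the change was 0.24 (adjusted p = 0.461 in limma), and when any 1 of the 3 young HSC arrays was left out.

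The surrogate light chain genes Vpreb1 and Igll1, and also Vpreb3 and Cd79a, were not called at this first step. Vpreb1 changed by 0.94 ± 0.347 (SE, adjusted p = 0.0673), Vpreb3 by 0.54 ± 0.200 (SE, adjusted p = 0.0691), Igll1 by 0.43 ± 0.255 (SE, adjusted p = 0.252) and Cd79a by 0.05 ± 0.273 (SE, adjusted p = 0.920), all from limma. The Vpreb1 call turned on the Ly6D- CLP arrays: without replicate 1 the change was 1.46 and passed (adjusted p = 0.0177 in limma), and without replicate 2 it was 0.42 (adjusted p = 0.541 in limma). Vpreb3 passed with array weights, with 1 added to the intensities, and in a fit of these 2 groups alone (adjusted p 0.0316 to 0.0468 in limma). With 32-week wild-type in place of young HSC, Blnk, Cd79b and Blk were called, at 4.28, 1.23 and 1.19 in log2.

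From young HSC to Ly6D+ CLP, 7 members were higher and none lower, while 10.4% of all genes tested were called higher and 13.9% lower. The log2 changes were 6.85 for Vpreb1, 6.60 for Blnk, 6.35 for Igll1, 3.25 for Cd79b, 2.40 for Vpreb3 and 1.92 for Cd79a, and Blk was at least 22.1-fold above background. Cd22 differed by -0.04 ± 0.204 (SE, 95% interval -0.48 to 0.40, adjusted p = 0.927 in limma). The comparisons with young HSC share the young arrays and are not independent of each other.

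The difference between the 2 steps was tested as a contrast of its own (the step from Ly6D- to Ly6D+ CLP minus the step from young HSC to Ly6D- CLP), a test chosen after the values had been seen. The Ly6D- CLP arrays enter both steps, with opposite sign. The first step also spans the differences in Xist, Eif2s3y and BioB between young HSC and CLP given above, and the second step does not. Their part in the difference between the steps was not tested. The second step was larger for 5 members and smaller for 1, and 5.15% and 3.21% of all genes tested were called in those directions. By their chosen probe sets, Vpreb1 and Igll1 changed mostly at the second step: the difference was 5.48 ± 0.471 (SE, adjusted p = 1.39e-05) for Igll1 and 4.98 ± 0.640 (SE, adjusted p = 4.31e-04) for Vpreb1 in limma. The other Igll1 probe set did not follow, with a difference of 0.15 ± 0.202 (SE, adjusted p = 0.796 in limma over all probe sets). For Blk it was 1.59 ± 0.265 (SE, adjusted p = 0.00276 in limma), but this call was lost with 1 added to the intensities (1.27, adjusted p = 0.0786). Vpreb3 (1.33) and Cd79a (1.82) were close to the threshold, with an adjusted p of 0.0417 each in limma, and each lost the call in 10 of 20 alternatives.

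Blnk went the other way, with its first step larger than its second: the difference was -1.75 ± 0.389 (SE, adjusted p = 0.0145 in limma). This call was lost in 4 of 20 alternatives: without replicate 2 of the Ly6D- CLP (-1.44, adjusted p = 0.144), with 64 added to the intensities (-0.73, adjusted p = 0.116), with array weights (-1.73, adjusted p = 0.0952) and with only the 3 groups fitted (-1.75, adjusted p = 0.0509). Cd79b changed by 1.60 at the first step and 1.65 at the second, and the difference of 0.05 had a 95% interval of -0.80 to 0.90. For Cd22 the difference was -1.26 ± 0.376 (SE, adjusted p = 0.0570 in limma). It passed without replicate 2 of the Ly6D- CLP (-1.99, adjusted p = 0.0119), with the replicate block (-1.25, adjusted p = 0.0413) and with a trended, robust variance estimate (-1.26, adjusted p = 0.0430). Without replicate 1 of the Ly6D- CLP it was -0.53 (adjusted p = 0.485 in limma).

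**Figure D2:**
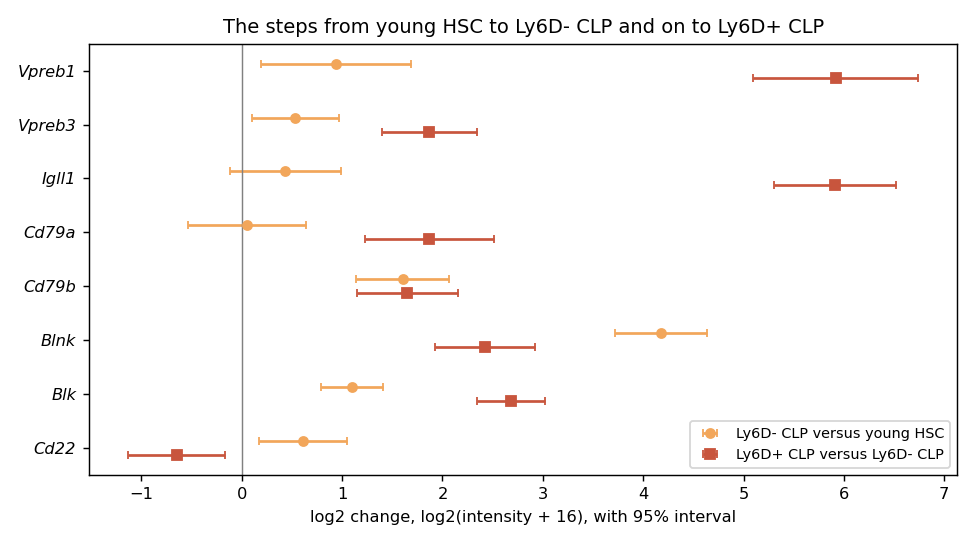
Log2 change of each member at the step from young HSC to Ly6D- CLP (circles) and from Ly6D- to Ly6D+ CLP (squares), on the log2(intensity + 16) scale, with 95% intervals from limma. Vpreb1 and Igll1 sit near 6 at the second step and under 1 at the first, Blnk has its larger change at the first step, and both Cd79b changes are close to 1.6. Only the chosen probe set of each gene is shown.

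Between stem cell groups the study asked what age and mitochondrial DNA mutations do, and no member was called in any of the 3 comparisons. In old against young HSC the log2 changes ran from -0.21 to 0.04 with a median of -0.13, each with an adjusted p of 0.9998 in limma and none with an unadjusted p under 0.05, as 7.23% of all genes had. In the same comparison 183 genes, 1.28% of those tested, were called. Vpreb1, the member with the widest interval, changed by -0.18, with a 95% interval of -0.86 to 0.49.

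In Mutator against 32-week wild-type HSC the members ran from -0.21 (Cd79b) to 0.25 (Blnk), with a median of -0.02 and no unadjusted p under 0.05. No gene at all was called in this comparison (0.0% of those tested), and 754 genes, 5.26%, had an unadjusted p under 0.05 in limma. Without replicate 3 of the 32-week wild type, the array that went against its sex label, the members ran from -0.34 to 0.16 and none was called.

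In 32-week wild-type against young HSC 0 of 8 members passed, with 18.5% of all genes called in either direction. Igll1 came closest, with 72.1 ± 30.9 against 39.4 ± 4.51 (SD, n = 3 each), a log2 change of 0.62 ± 0.228 (SE, 95% interval 0.12 to 1.11, adjusted p = 0.0801 in limma). It passed without replicate 2 of the 32-week wild type (0.83, adjusted p = 0.0185), with array weights (0.53, adjusted p = 0.0291) and with the replicate number as a block (adjusted p = 0.0418), and it was 0.67 (adjusted p = 0.119) without replicate 3. Without replicate 1, which held the highest value, it was 0.35 (adjusted p = 0.282 in limma). Cd79b was higher by 0.37 ± 0.190 (SE, adjusted p = 0.209 in limma). For both genes all 3 arrays of the 32-week wild type lay above all 3 young arrays, as they did for 12.6% of all genes. The actin 3' to 5' ratios of these 2 groups do not overlap, as given above, and their part in these values was not tested.

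**Figure D3:**
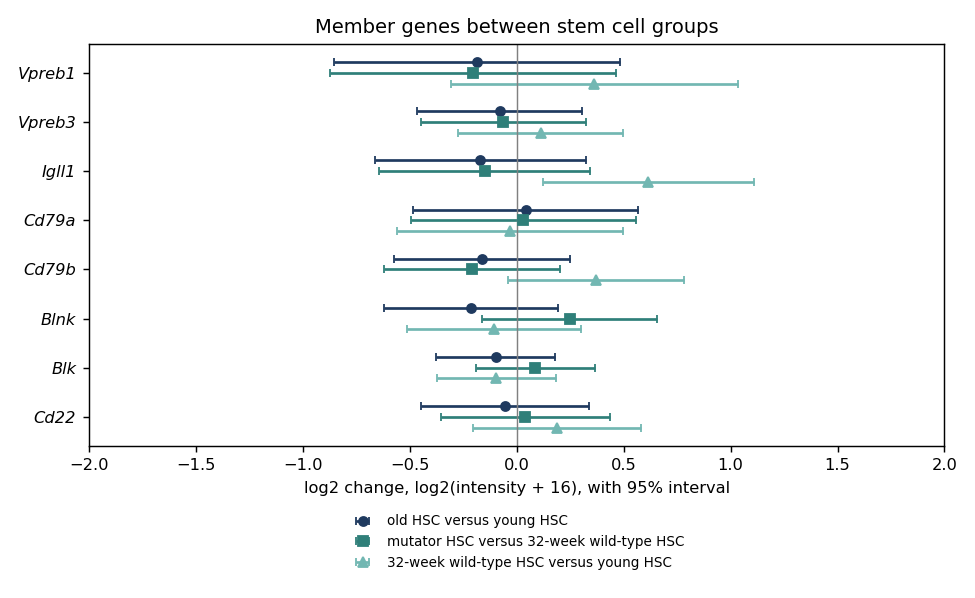
Log2 change of each member in 3 comparisons of stem cell groups, with 95% intervals from limma. All intervals but that of Igll1 in 32-week wild-type against young HSC include 0, and no member was called.

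The other genes of the pathway were taken from lists by role. In Ly6D+ against Ly6D- CLP, 1.49% of all genes tested were called higher and 1.19% lower, the shares to set beside the list counts below. Of 19 tested kinases and adaptors downstream of the receptor, 1 was higher in Ly6D+ than in Ly6D- CLP, 1 was lower, and the median change was 0.20. Prkcb, the protein kinase C isoform that carries the receptor signal to NF-kappaB, averaged 626 ± 72.3 against 36.7 ± 7.70 (SD, n = 2 each), a log2 change of 3.61 ± 0.456 (SE, adjusted p = 6.14e-04 in limma). The HSC group means of Prkcb, from 50.8 in Mutator to 114 in old mice, lay above that of the Ly6D- CLP. Rasgrp3, an exchange factor for Ras, fell by 1.21 in log2 (adjusted p = 0.0127 in limma), from 91.8 to 28.8. Syk, the kinase that binds the phosphorylated receptor chains, averaged 1391 ± 366 in Ly6D+ and 1310.2 ± 279.8 in Ly6D- CLP (0.08, adjusted p = 0.978 in limma) and was already higher in Ly6D- CLP than in young HSC by 0.96 ± 0.324 (SE, adjusted p = 0.0469). In Ly6D- CLP against young HSC, 5 of the 19 were higher, Syk, Plcg2, Bank1, Lat2 and Rasgrp3, and 2 were lower, Dapp1 and Bcl10. Among all genes tested, 9.55% were called higher and 14.9% lower there.

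Of 11 tested co-receptors, inhibitory receptors and phosphatases, none was higher in Ly6D+ than in Ly6D- CLP and 1 was lower, with a median of -0.18. That gene, Pirb, an inhibitory receptor, fell by 0.78 in log2 (adjusted p = 0.0188 in limma), from 38.8 to 15.7, a level at background. Against young HSC, 5 of the 11 were higher in Ly6D- CLP, Cd72, Pirb, Siglecg, Cd5 and Inpp5d, and none was lower, beside 9.55% and 14.9% of all genes tested. Of the 9 immunoglobulin loci listed, 3 matched a gene, and none of these passed in any comparison. Ighm, the mu heavy chain, read 136 ± 16.1 in Ly6D+ and 111 ± 7.29 in Ly6D- CLP (SD, n = 2 each), a log2 change of 0.25 (adjusted p = 0.531 in limma). Its HSC group means, 120 to 129, lay between those of the CLP groups. Iglv1 changed by 0.20 (adjusted p = 0.799 in limma), with group means near background, 16.6 to 22.3. Both probe sets are of the x_at type, whose probes can match other transcripts, so these values may not read the named gene alone.

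Of 12 transcription factors known to act on these genes, 5 were higher in Ly6D+ than in Ly6D- CLP and none was lower, with a median of 0.98. Pou2af1, the octamer coactivator, went from background, 11.1 ± 1.02, to 1333 ± 42.0 (SD, n = 2 each), with a log2 change of 5.64 and an adjusted p of 1.18e-10 in limma. Ebf1, a factor needed for B-lineage commitment, went from 83.8 ± 44.0 to 1851 ± 283 (SD, n = 2 each; 4.29, adjusted p = 3.95e-07 in limma). Foxo1 went from 332 to 2041 (2.55, adjusted p = 0.00116), Spib from background, 15.9, to 114 (2.0, adjusted p = 4.37e-05), and Irf4, the fifth, read 91.7 ± 79.3 against 16.3 ± 0.468 (SD, n = 2 each; 1.51, adjusted p = 0.0391). The sizes of the changes that start from background depend on the 16 added. Pax5, the B-cell identity factor, read 85.0 ± 61.0 against 23.8 ± 0.355 (SD, n = 2 each) and missed the threshold (1.20, adjusted p = 0.0688 in limma). Against young HSC, 4 of the 12 were higher in Ly6D- CLP, Ebf1, Tcf3, Ikzf1 and Irf8, and Foxo1 was lower, whereas 11 of the 12 were higher in Ly6D+ CLP. Among all genes tested, 9.55% were called higher and 14.9% lower in Ly6D- CLP, and 10.4% were called higher in Ly6D+ CLP. In old against young and in Mutator against 32-week wild-type HSC, no gene of these 4 lists passed. In 32-week wild-type against young HSC, Plcg2 was higher, Pik3r1, Grb2, Dapp1, Cblb, Bcl10 and Ptprc were lower, and no listed transcription factor passed. Among all genes tested, 18.5% were called in that comparison, and the median change of the 19 kinases and adaptors was -0.56. The actin 3' to 5' ratios of these groups do not overlap, and their part in these values was not tested.

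**Figure D4:**
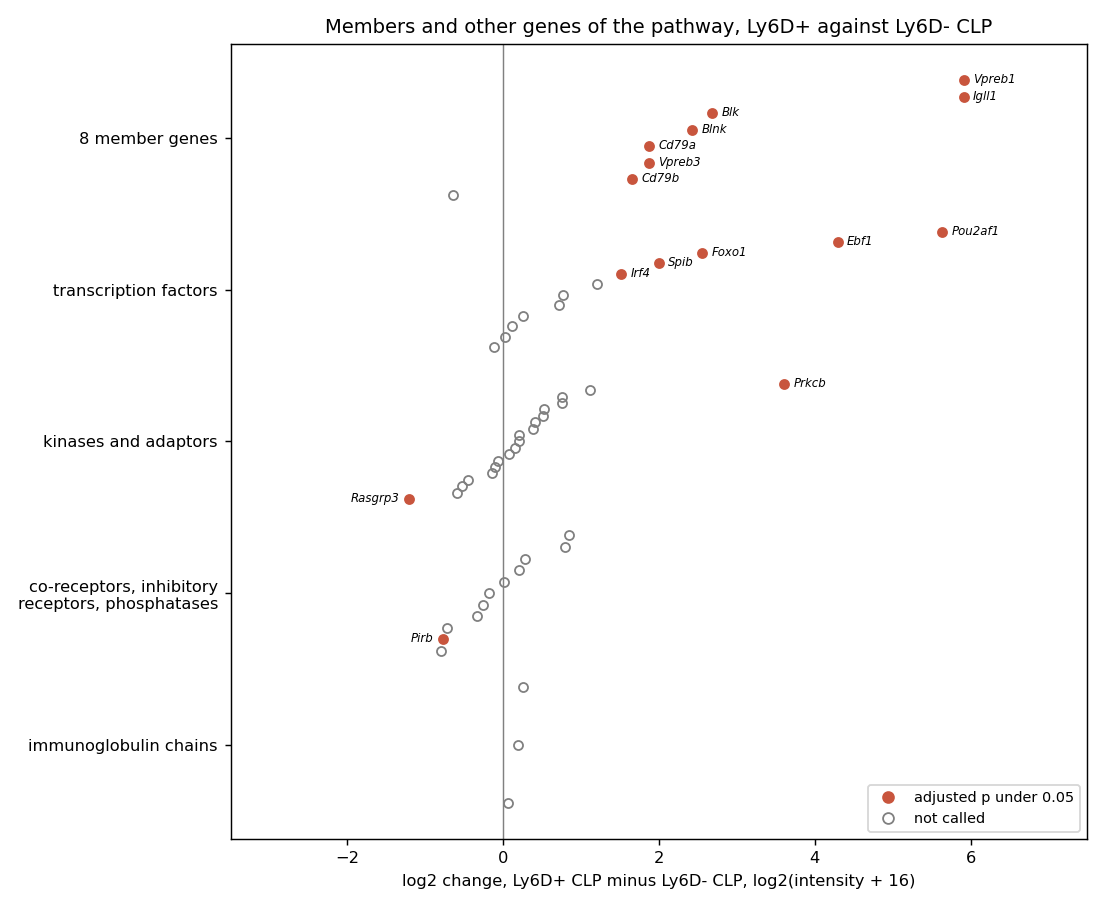
Log2 change from Ly6D- to Ly6D+ CLP of the 8 members and of the other pathway genes by list, on the log2(intensity + 16) scale. Each point is a gene, filled where the adjusted p was under 0.05, and the vertical spread within a list only separates the points. The members lie to the right except Cd22 at -0.65, while most kinases, co-receptors and immunoglobulin genes lie near 0.

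Markers of other cells were read beside these results, and their part in the members' changes was not tested. Summed intensities run over every matched marker, tested or not. Of 9 tested mature B-cell markers, 2 were lower in Ly6D+ CLP and none higher (Cd74, -1.03, and Fcmr, -0.64). Their summed intensity was 1347 to 1728 in Ly6D+ and 1866 to 1946 in Ly6D- CLP. Of the 11 matched, 7 were above background in each group, and Cr2, Fcer2a and Cxcr5 were at background in both. Of 6 plasma cell markers, Mzb1 was higher (3.31, from 160 ± 92.2 to 1622 ± 354, SD, n = 2 each), and the sums were 2161 to 2797 and 967 to 1117. Of the 7 matched, 5 were above background in each group, and Tnfrsf17 was at background in both. Of 7 plasmacytoid dendritic cell markers, Ccr9 was lower (-2.78, from 1208 to 188), with sums of 2095 to 2144 and 3423 to 3619.5. The 8 neutrophil markers were all lower in value and none passed, with a median of -2.02 and sums of 1827 to 2373 and 4578 to 7884. The smallest p among them belonged to Camp (-2.20, adjusted p = 0.514 in limma), which averaged 28.7 ± 7.78 and 427 ± 556 (SD, n = 2 each).

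No marker passed among 7 of T and NK cells, with sums of 840 to 1360 in Ly6D+ and 1014 to 1128 in Ly6D- CLP. Of the 10 matched, 8 were above background in Ly6D+ and 7 in Ly6D- CLP, and Cd3g and Cd8b1 were at background in both. The T-cell genes Thy1 and Cd8a changed by 0.40 and -0.16. None passed among 8 markers of macrophages either, with sums of 173 to 192 and 197 to 245 and with C1qc at 0.42 and Vcam1 at -0.83. The 5 tested erythroid markers had sums of 446 to 711 and 1117 to 1296 and none passed, with Car2 at -1.36 (adjusted p = 0.0715 in limma) and Klf1 at -0.33. The 8 stem cell markers had sums of 1071 to 1162 and 1873 to 1949.9, and none passed, with Procr at 0.77 and Mecom at -1.44. They were all called lower in both CLP groups than in young HSC, as were 14.9% of all genes tested in Ly6D- and 13.9% in Ly6D+ CLP. Of 7 lymphoid progenitor markers, Rag1, which cuts DNA for receptor gene assembly, was higher in Ly6D+ CLP (3.92 ± 0.133, SE, adjusted p = 1.89e-09 in limma), as was the sort marker Ly6d.

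The members differed in how closely they followed their common pattern, which is a description and carries no test. Each gene was centred on its mean over the 16 arrays and set against the median of the 8 members. The root mean square difference in log2 was 0.22 for Blk, 0.31 for Cd79b and 0.37 for Vpreb3, 0.59 for Cd79a, 0.96 for Igll1, 1.14 for Vpreb1, 1.18 for Cd22 and 1.44 for Blnk, and the median over all genes was 1.18. Of the genes that are no members, the 8 most like this median were Pik3r6 (0.17), Gpr25 (0.29), Il10ra (0.32), Bfsp2 (0.33), Scn4b (0.33), Akap12 (0.34), Stum (0.35) and Niban3 (0.37). Pik3r6, which encodes a regulatory subunit of phosphoinositide 3-kinase gamma, averaged 1219 ± 219 in Ly6D+ CLP and 203 ± 5.40 in Ly6D- CLP (SD, n = 2 each), and 76.5 to 121 in the HSC groups. Bfsp2 averaged 666 in Ly6D+ CLP, 88.9 in Ly6D- CLP and 19.5 to 27.2 in HSC.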

How the data were processed

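Expression was measured on 16 Affymetrix mouse arrays of sorted bone marrow cells. The deposited values are probe set intensities on a linear scale made by the authors; how they were summarised, background-corrected and normalized is not given in the sources used here. Of 45101 probe sets, 34945 carry 1 symbol in the platform annotation, 932 carry several and 9224 carry none or are controls. Intensities were transformed to log2(intensity + 16), and 1 probe set per gene was kept. A limma model (version 3.58.1, R 4.3.3) of the group means was fitted to all 16 arrays, with Benjamini-Hochberg adjustment of the p-values over 14343 genes. All groups were fitted together because the CLP groups have 2 arrays each. The p-values rest on a spread within groups that is pooled over all 16 arrays, most of them HSC, and moderated across genes. The small number of CLP arrays limits the precision. A group mean is called background when no array of the group lies above its 40th percentile.

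Genes named beside the members are up to 4 per list past the threshold in Ly6D+ against Ly6D- CLP (or the 2 with the smallest p), the 8 genes most like the members, and array checks; Syk, Irf4, Pax5, the lists' genes called against young HSC and members of the marker lists at background were named after their values were seen. The members and lists were chosen with earlier results of these data known. Replicate numbers were checked as pairs. Correlations of deviations ran from -0.06 to 0.50 and did not all exceed 0.1 in any comparison of 3 pairs. In old against young HSC they were 0.50, 0.42 and -0.01 for replicates 1, 2 and 3. In Mutator against its wild-type HSC they were 0.34, 0.08 and -0.06. Both pairs of Ly6D- CLP and young HSC exceeded 0.1 (0.115 and 0.110). For Ly6D+ and Ly6D- CLP the value was -8.08e-04, which 2 arrays in each group force to be the same for both pairs. The main model did not pair the numbers, and the replicate block was run as an alternative. Whether arrays of the same number shared a batch was not tested. Promoters came from RefSeq (GRCm38.p6) and matched 6 of 8 members.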

Additional observations from a re-analysis of the deposited data

How the results depend on the processing

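The 7 calls in Ly6D+ against Ly6D- CLP rest on a spread shared with the HSC arrays: with only the 4 CLP arrays fitted, limma called 0 members and 0 genes, with 1005 genes and 7 members at an unadjusted p under 0.05 and a lowest member adjusted p of 0.132. Array weights gave 6 members, and leaving out each array gave 7 to 8. Members called in Ly6D- CLP against young HSC numbered 3 to 5 over all alternatives, and Ly6D+ CLP against young HSC gave 7 in every alternative. Where every probe set was tested, a member counted as called if any of its probe sets passed, so a further probe set could not cost a call. The other Igll1 probe set changed by 0.20 in Ly6D+ CLP against young HSC (adjusted p = 0.270 in limma over all probe sets). In 32-week wild-type against young HSC, array weights and the replicate block each gave 1 member (Igll1), as did leaving out 32-week wild-type replicate 2, for a range of 0 to 1. The difference between the steps gave 6 members, 3 with array weights, 3 with only its 3 groups fitted, and 4 to 6 with each array left out. With the replicate block, Ly6D+ against Ly6D- CLP kept its count of 7, Ly6D- against young HSC 4 and Ly6D+ against young HSC 7. No member's change was reversed in a call, and old against young and Mutator against 32-week wild-type HSC gave 0 members in every alternative run.

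Counts over all genes moved more. Ly6D+ against Ly6D- CLP called 384 genes, 105 with array weights and 307 to 752 with each array left out. When every probe set was tested it called 605, each gene counted once per direction. Old against young HSC called 183 genes, 1847 with array weights, 973 with only those groups fitted and 93 to 125 with each array left out. Mutator against 32-week wild-type HSC called 0 genes, and 70 without 32-week wild-type replicate 2. In 32-week wild-type against young HSC, 2653 genes were called, 4363 with array weights and 1634 to 3457 with each array left out; 676 were higher and 1977 lower, and quantile normalization changed this to 1014 and 1465. The difference between the steps called 1199 genes, 569 with array weights and 649 to 1543 with each array left out. The causes of these shifts were not tested. Genes near background, among them Cd79a and Blk in HSC, have log2 changes whose size depends on the value added.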
